A study of Mus musculus with 16 samples.

Results

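The integrins and adhesion molecules described here are 9 genes: the integrin alpha chains Itgal, Itga4, Itgav, Itgam and Itgax, the beta chains Itgb1, Itgb2 and Itgb7, and Icam1, an immunoglobulin-family ligand. They were chosen by name, as the rows of the deposited count table with these symbols, 9 of 25640 genes. All 9 passed the filter on low counts and were among the 13708 genes tested.

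Integrins are surface receptors that pair an alpha with a beta chain, and they bind matrix or ligands on other cells once signals from inside the cell have switched them to an active shape. Itgal and Itgb2 form LFA-1, which binds Icam1, while Itga4 pairs with Itgb1 to form VLA-4, which binds Vcam1, or with Itgb7 to form the gut-homing receptor for Madcam1. In the germinal center, B cells use LFA-1 and VLA-4 to hold on to follicular dendritic cells and helper T cells.

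RNA-seq of polyadenylated RNA compared follicular B cells, here FoB, with B cells of the germinal center, here GCB, both sorted by flow cytometry from spleens of C57BL/6 mice aged 10 weeks, 7 days after immunization with 100 µg NP-CGG, a hapten coupled to chicken gamma globulin, in alum. All mice were homozygous for floxed Rock2, which encodes a kinase that acts on the actin cytoskeleton. WT mice carried no Cre, and the conditional knockouts (cKO) had CD23-Cre, which acts in B cells once CD23 is expressed. The study concerned how ROCK2 bears on germinal center B cell positioning, a process in which adhesion receptors take part. Genotype and cell type gave 4 groups, each with 3 libraries numbered 1 to 3. No source says that the libraries of a group came from separate animals, and p-values measure only the spread between these samples. No group carried CD23-Cre without the floxed gene, so an effect of Cre itself and of Rock2 loss cannot be told apart.

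Library totals ran from 23349512 to 26967943 counts. Levels are CPM, that is counts scaled to library size, with TMM factors that level out differences in library composition, and differences are log2 fold changes ± standard error (SE) from edgeR's quasi-likelihood test over all genes, with a Benjamini-Hochberg adjusted p under 0.05 as the threshold. Rock2, the targeted gene, stood at 198, 154 and 145 CPM in WT GCB 1, 2 and 3 and at 119, 131 and 92.6 CPM in the cKO GCB libraries. In FoB it stood at 151, 129 and 132 CPM in WT and at 123, 87.4 and 96.4 CPM in cKO. Rock2 was lower in each cKO library than in each WT library of its cell type without passing the edgeR test (adjusted p = 0.563 in GCB and 1 in FoB), and exons that Cre does not remove can still give reads. With the replicate number as a block, the adjusted p was 0.0330 in GCB and 1 in FoB. The summed level of 8 B cell markers was 11037 to 24779 CPM over all libraries. That of 8 follicular markers was 6964 to 11425 CPM in FoB and 950 to 1395 CPM in GCB, that of 10 germinal center markers was 264 to 321 CPM in FoB and 2498 to 3444 CPM in GCB, and every gene of these lists was detected in every group. On the first principal component of log2 CPM, which separated FoB from GCB, WT FoB 1 (-68.2) and cKO GCB 1 (59.5) lay closer to the other cell type than the rest of their groups did, and the second set the number 2 libraries apart (-60.0 to -34.1, against 13.7 to 32.4). Leaving out WT FoB 1 and cKO GCB 1 together changed 1 call among the members (Itgax, given with it), and leaving out number 2 in every group ended 2 (Itgal and Itgam, given with them). The libraries sharing a replicate number varied together across genes. A fit with the number as a block is given where it changes the call of a member or a gene list count given here.

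Between the cell types of WT mice, 6 of the 9 genes passed the test. Itgb1 was higher in GCB, and Itgb7, Itga4, Itgax, Itgam and Itgal were lower. Itgav, Itgb2 and Icam1 did not pass. Over all genes tested, 25.6% were higher and 22.8% lower in GCB, so the 1 higher gene of 9 lay below the background share and the 5 lower genes above it. The median log2 fold change of the 9 genes was -0.41, against -0.01 over all genes tested. With the replicate block 2 members were higher and 5 lower, against 35.2% and 34.3% of all genes. DESeq2 called 6 members, against 26.6% of all genes higher and 25% lower.

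**Figure D1:**
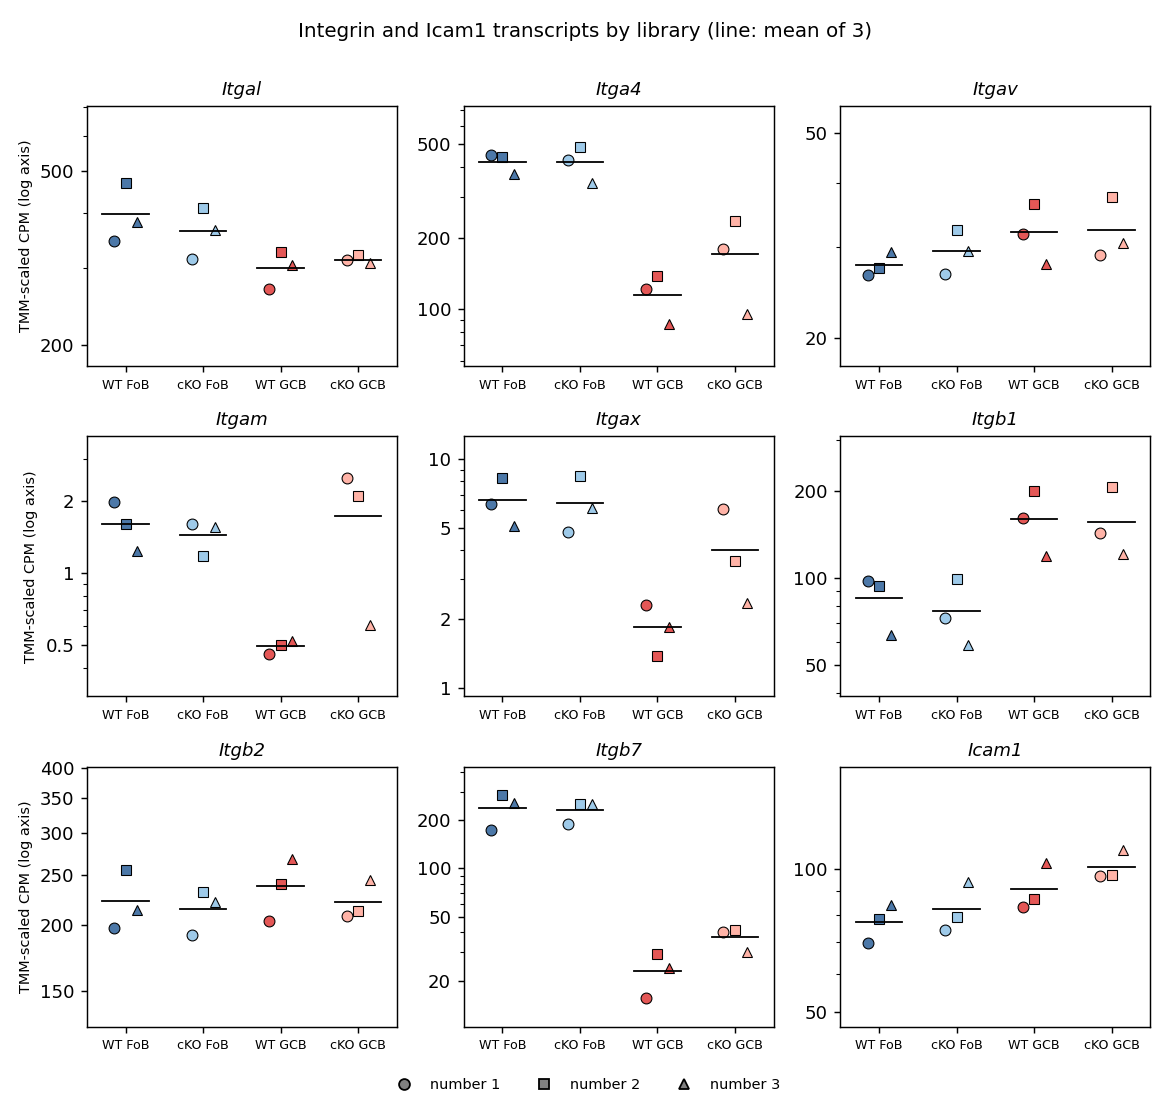
TMM-scaled CPM (log axis, with its own range in each panel) of the 9 genes in the 12 libraries, with a symbol for each replicate number and a line at the mean of 3. Itgb7 stood at 174 to 287 CPM in WT FoB and at 15.5 to 29.1 CPM in WT GCB, with cKO GCB between them at 30.0 to 41.6 CPM, while the Itgb2 groups overlapped.

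The beta chains that share Itga4 as a partner went in opposite directions. Itgb7 (ENSMUSG00000001281; mm10 chromosome 15, 102215994 to 102233405) stood at 174, 287 and 254 CPM in WT FoB 1, 2 and 3, and at 15.5, 29.1 and 24.0 CPM in WT GCB. In cKO mice it stood at 189, 250.2 and 254 CPM in FoB and at 40.0, 41.6 and 30.0 CPM in GCB. Every GCB library lay far below every FoB library. Itgb7 was 10.4-fold lower in GCB than in FoB of WT mice, a log2 fold change of -3.38 ± 0.27 (edgeR adjusted p = 1.80e-06, lower in 3 of 3 numbers). In cKO it was 6.21-fold lower, at -2.63 ± 0.26 (adjusted p = 9.06e-06, 3 of 3 numbers). WT GCB kept 9.58% of the mean WT FoB level and cKO GCB 15.6%. Both differences passed in each of their 16 alternatives, with adjusted p of at most 0.000416 and 0.000973.

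Itgb1, the beta chain common to the VLA family (ENSMUSG00000025809; chromosome 8, 128685654 to 128733579), stood at 97.9, 93.7 and 63.5 CPM in WT FoB 1, 2 and 3 and at 162, 200 and 119 CPM in WT GCB. In cKO libraries it stood at 72.5, 99.1 and 58.5 CPM in FoB and at 143, 206 and 121 CPM in GCB. All GCB libraries were above all FoB libraries, and library 3 was the lowest of each group. GCB exceeded FoB by a log2 fold change of 0.91 ± 0.27 in WT (edgeR adjusted p = 0.0151) and 1.03 ± 0.27 in cKO (adjusted p = 0.00846), in 3 of 3 numbers each. The WT call was lost without WT FoB 3 (0.74, adjusted p = 0.0644) or WT GCB 2 (0.72, adjusted p = 0.0666), and the range over 16 alternatives was 1.45e-06 to 0.0666. In cKO it passed in all 16 alternatives (adjusted p at most 0.0410).

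Itga4, their common alpha chain (ENSMUSG00000027009; chromosome 2, 79255426 to 79333114), stood at 449, 443 and 373 CPM in WT FoB 1, 2 and 3 and at 121, 138 and 85.8 CPM in WT GCB. The cKO libraries held 431, 486 and 341 CPM in FoB and 180, 236 and 94.8 CPM in GCB. Both FoB groups lay above both GCB groups, and library 3 was again the lowest of each group. The log2 fold change from FoB to GCB was -1.88 ± 0.30 in WT (edgeR adjusted p = 0.000272) and -1.299 ± 0.29 in cKO (adjusted p = 0.00319), each in 3 of 3 numbers. Both differences passed in all 16 alternatives, with adjusted p of at most 0.00299 in WT and 0.0151 in cKO. The mean in GCB was 27.3% of WT FoB in WT and 40.4% in cKO.

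The promoters of these 3 genes are shown because the common alpha chain and its alternative beta chains passed in both genotypes and in opposite directions. RefSeq's promoter table on GRCm38.p6, the build that mm10 names, holds 7 of the 9 genes and lacks Itgal and Itgb2. Each window runs from 250 bases before to 50 after the start site, on the gene's own strand. The Itgb7 window lies inside the gene's annotated span. Capitals mark matches on either strand to the CACCC box (CCACCC), the GC box (GGGCGG), the PU.1 box (GAGGAA), the ETS core (CCGGAA) or the NF-kB pattern (GGG, any 5 bases, CC). The AP-1 site (TGANTCA) and the ETS-IRF composite (GGAA, any 2 bases, GAAA) were also searched and are not in these windows.
Itgb7, chr15:102231886-102232185, minus strand: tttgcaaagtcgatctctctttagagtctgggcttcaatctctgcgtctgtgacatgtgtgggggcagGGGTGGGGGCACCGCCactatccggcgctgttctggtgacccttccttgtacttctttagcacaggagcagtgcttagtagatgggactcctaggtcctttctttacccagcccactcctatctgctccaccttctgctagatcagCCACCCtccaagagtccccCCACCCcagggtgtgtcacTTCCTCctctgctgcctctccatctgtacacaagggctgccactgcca
Itga4, chr2:79255176-79255475, plus strand: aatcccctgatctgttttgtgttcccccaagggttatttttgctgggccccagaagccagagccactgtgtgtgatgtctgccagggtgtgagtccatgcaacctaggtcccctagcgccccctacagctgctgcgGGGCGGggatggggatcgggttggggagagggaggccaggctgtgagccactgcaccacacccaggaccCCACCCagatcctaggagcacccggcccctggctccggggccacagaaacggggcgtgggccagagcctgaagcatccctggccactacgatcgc
Itgb1, chr8:128685404-128685703, plus strand: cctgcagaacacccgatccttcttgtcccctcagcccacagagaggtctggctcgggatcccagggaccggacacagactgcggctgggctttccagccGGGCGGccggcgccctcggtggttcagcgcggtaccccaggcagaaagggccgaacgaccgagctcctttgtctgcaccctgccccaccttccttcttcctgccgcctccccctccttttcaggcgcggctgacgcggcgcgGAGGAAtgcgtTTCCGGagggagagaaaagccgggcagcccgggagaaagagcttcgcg

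The Itgb7 window held 3 CACCC boxes, which begin 182, 36 and 17 bases before the start site. It also held 1 PU.1 box and 1 NF-kB match, which overlaps none of the others but adjoins the first CACCC box in 1 run of capitals. The Itga4 window held 1 CACCC box, 45 bases before the start, and 1 GC box. No CACCC box was in the Itgb1 window, which held 1 GC box, 1 PU.1 box and 1 ETS core. Of 32851 RefSeq promoter windows of 300 bases, 31.5% held a CACCC box, 35.7% a GC box, 28.3% a PU.1 box, 14.9% an ETS core, 50.8% the NF-kB pattern, 7.81% an AP-1 site and 2.72% the composite. The windows also differed in base composition. Itgb1 had 67.3% G and C and 27 CpG dinucleotides, Itga4 64.3% and 10, and Itgb7 56.3% and 5, against medians of 52.7% and 7 over all windows. These matches describe letters in the windows, not bound sites.

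**Figure D2:**
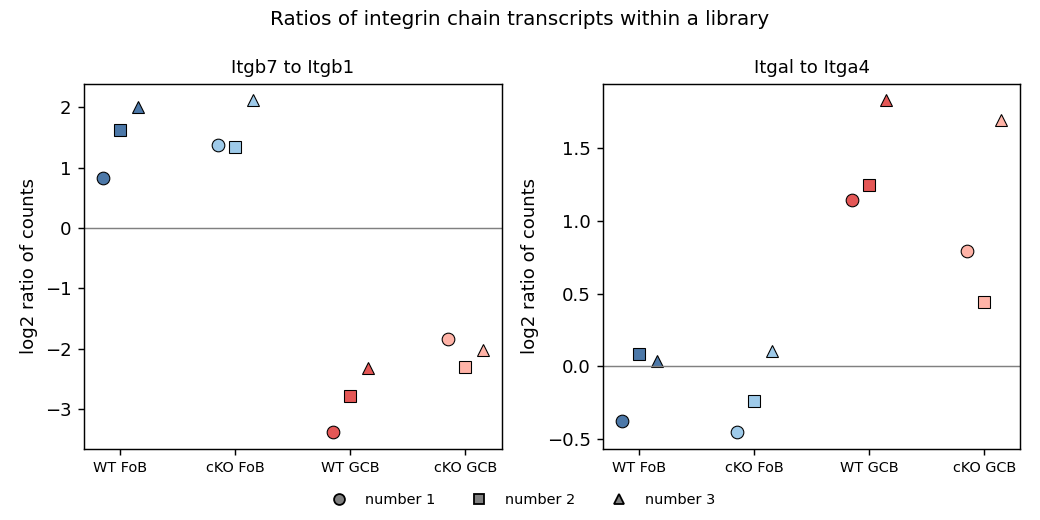
Log2 ratio of counts between chains within each library: Itgb7 to Itgb1 (left) and Itgal to Itga4 (right), with a symbol for each replicate number. The Itgb7 to Itgb1 ratio lay between 0.83 and 2.12 in the FoB libraries and between -3.38 and -1.84 in the GCB libraries.

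A ratio of counts within a library does not depend on library scaling, and since transcript lengths differ, only its change between groups is read here. The log2 ratio of Itgb7 to Itgb1 was 1.48 ± 0.60 in WT FoB and 1.61 ± 0.44 in cKO FoB (mean ± SD, n = 3). It was -2.83 ± 0.54 in WT GCB and -2.05 ± 0.24 in cKO GCB. FoB and GCB libraries did not overlap. Within GCB the WT libraries ran from -3.38 to -2.31 and the cKO libraries from -2.31 to -1.84, so that the groups only just touched at the precision printed.

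The LFA-1 chains had smaller differences. Itgal, its alpha chain (ENSMUSG00000030830; chromosome 7, 127296139 to 127335137), stood at 345, 469.7 and 381 CPM in WT FoB 1, 2 and 3 and at 268, 326 and 305 CPM in WT GCB. The cKO libraries held 314, 412 and 367 CPM in FoB and 312, 320.4 and 307 CPM in GCB. The WT groups did not overlap, and the cKO groups did. In WT, Itgal was lower in GCB by a log2 fold change of -0.41 ± 0.15 (edgeR adjusted p = 0.0422, 3 of 3 numbers), and in cKO the value was -0.22 ± 0.15 (adjusted p = 0.266). The WT call was close to the threshold. It was lost without WT FoB 2 (adjusted p = 0.117), WT FoB 3 (0.0687), WT GCB 1 (0.137), WT GCB 2 (0.0514) or WT GCB 3 (0.0786). It was also lost with no filter on low counts (0.0849), with only the compared groups fitted (0.0906) and without number 2 in every group (0.0872). Over 16 alternatives it passed in 8, with adjusted p from 0.000573 to 0.137. The cKO difference passed in 1 of 16, the block fit without cKO GCB 1 (-0.30, adjusted p = 0.0134), with adjusted p up to 0.564.

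Itgb2, the beta chain shared by LFA-1 and the myeloid integrins (ENSMUSG00000000290; chromosome 10, 77530329 to 77565708), stood at 198, 256 and 214 CPM in WT FoB and at 204, 240 and 268 CPM in WT GCB. In cKO it stood at 192, 231 and 222 CPM in FoB and at 208, 213 and 244 CPM in GCB. All 4 groups overlapped. GCB against FoB gave 0.09 ± 0.15 in WT (edgeR adjusted p = 0.640) and 0.05 ± 0.15 in cKO (adjusted p = 0.823). The log2 ratio of Itgb2 to Itgal was -0.84 ± 0.04 in WT FoB, -0.76 ± 0.07 in cKO FoB, -0.34 ± 0.14 in WT GCB and -0.50 ± 0.15 in cKO GCB (SD, n = 3), with no overlap between FoB and GCB. Set against Itga4, Itgal gained in GCB. Its log2 ratio to Itga4 was -0.09 ± 0.25 in WT FoB and -0.20 ± 0.28 in cKO FoB, against 1.41 ± 0.37 in WT GCB and 0.98 ± 0.65 in cKO GCB (SD, n = 3).

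Icam1, the LFA-1 ligand that B cells themselves display (ENSMUSG00000037405; chromosome 9, 21015940 to 21028814), stood at 69.7, 78.5 and 83.9 CPM in WT FoB 1, 2 and 3 and at 83.3, 86.6 and 103 CPM in WT GCB. The cKO libraries held 74.3, 79.2 and 93.8 CPM in FoB and 96.5, 97.1 and 109.7 CPM in GCB. Neighbouring groups overlapped in the order from WT FoB through cKO FoB and WT GCB to cKO GCB, but all cKO GCB libraries lay above all cKO FoB libraries. The difference of GCB from FoB was 0.23 ± 0.14 in WT (edgeR adjusted p = 0.194) and 0.29 ± 0.14 in cKO (adjusted p = 0.106), positive in 3 of 3 numbers each. With the replicate block Icam1 passed in both (adjusted p = 0.0159 in WT and 0.00334 in cKO). Over 16 alternatives it passed in 3 for each genotype, all of them with the block, and adjusted p ran from 0.0159 to 0.530 in WT and from 0.00334 to 0.403 in cKO.

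Itgav, the alpha chain of vitronectin receptors (ENSMUSG00000027087; chromosome 2, 83722303 to 83806917), ran from 26.5 to 29.4 CPM in WT FoB, 26.6 to 32.5 CPM in cKO FoB, 27.9 to 36.5 CPM in WT GCB and 29.0 to 37.6 CPM in cKO GCB, and all groups overlapped. No comparison of Itgav passed (edgeR adjusted p = 0.286 for the cell types in WT and 0.495 in cKO).

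The myeloid alpha chains were scarce. Itgax, which encodes CD11c (ENSMUSG00000030789; chromosome 7, 128129526 to 128150657), stood at 6.39, 8.30 and 5.12 CPM in WT FoB 1, 2 and 3 and at 2.29, 1.38 and 1.84 CPM in WT GCB. In cKO it stood at 4.82, 8.41 and 6.11 CPM in FoB and at 6.05, 3.58 and 2.35 CPM in GCB. The WT groups did not overlap, while cKO GCB 1 lay among the FoB values. GCB against FoB gave -1.84 ± 0.37 in WT (edgeR adjusted p = 0.00148) and -0.69 ± 0.35 in cKO (adjusted p = 0.132). The cKO difference passed with the block (adjusted p = 0.0389) and without cKO GCB 1 (-1.12, adjusted p = 0.0258; 0.0346 with WT FoB 1 left out too), and it passed in 4 of 16 alternatives, with adjusted p from 0.00211 to 0.483.

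Itgam, which encodes CD11b (ENSMUSG00000030786; chromosome 7, 128062640 to 128118491), was the scarcest, with 12 to 66 counts a library. It stood at 1.98, 1.60 and 1.24 CPM in WT FoB 1, 2 and 3 and at 0.458, 0.500 and 0.521 CPM in WT GCB. In cKO it stood at 1.61, 1.18 and 1.55 CPM in FoB and at 2.48, 2.09 and 0.606 CPM in GCB. WT GCB was below the other groups, and cKO GCB was split between 2 libraries above all FoB libraries and 1 near the WT GCB level. GCB against FoB gave -1.70 ± 0.47 in WT (edgeR adjusted p = 0.0101) and 0.25 ± 0.43 in cKO (adjusted p = 0.660). The WT call passed in 15 of 16 alternatives and was lost without number 2 in every group (adjusted p = 0.0718).

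In these bulk samples, fewer cells of a type and less RNA per cell cannot be told apart. Markers of myeloid cells were present at low levels beside Itgam and Itgax. All 14 monocyte and macrophage markers were detected in each group, with a summed level of 28.1 to 38.1 CPM in WT FoB, 23.6 to 41.9 CPM in cKO FoB, 13.7 to 33.7 CPM in WT GCB and 15.3 to 38.4 CPM in cKO GCB. The 10 neutrophil markers summed to 2.07 to 19.3 CPM in WT FoB, 3.58 to 9.50 CPM in cKO FoB, 0.722 to 11.4 CPM in WT GCB and 1.13 to 5.83 CPM in cKO GCB, with Ly6g at 0 in WT GCB and Elane at 0 in cKO GCB. The 10 dendritic cell markers summed to 13.0 to 20.4 CPM in WT FoB, 14.4 to 24.8 CPM in cKO FoB, 72.0 to 74.0 CPM in WT GCB and 65.5 to 72.9 CPM in cKO GCB, and in GCB Flt3 alone held 60.9 to 70.04 CPM of this. Of the 8 dendritic cell markers tested, Flt3 was the only one above 0 in the WT contrast of GCB with FoB (median -1.45), where it passed as higher and 2 markers, Zbtb46 and Cd209a, passed as lower. Batf3, a dendritic cell factor, was at 0 in WT GCB, and Xcr1 was at most 0.201 CPM in any library. In the same contrast 1 of 11 monocyte and macrophage markers tested was higher and 2 lower (median 1.53), and 0 of 6 neutrophil markers passed (median -0.87). With the replicate block the counts were 4 higher and 3 lower for monocyte and macrophage markers and 0 and 2 for neutrophil markers. For dendritic cell markers they were 1 and 4.

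All NK cell markers and part of the T cell markers fell beside Itgam and Itgax in WT. All 9 NK cell markers tested were lower in WT GCB than in WT FoB (median log2 fold change -2.44), with sums of 26.5 to 73.5 CPM in WT FoB and 7.58 to 11.1 CPM in WT GCB. In cKO, 9 of 9 were lower too (median -1.75), against 22.8% of all genes lower in WT and 21.8% in cKO. Of 14 T cell markers, 7 were lower in WT GCB (median -1.35) and 2 in cKO GCB (median -0.30), and 0 were higher in either. With the replicate block, 8 were lower and 1 higher in WT, and 6 were lower and 1 higher in cKO. The part of any of these cells in the levels of Itgam and Itgax was not tested.

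In cKO mice, 3 of the 9 genes passed between the cell types, with Itgb1 higher and Itgb7 and Itga4 lower in GCB. Over all genes, 24.8% were higher and 21.8% lower, so 1 of 9 higher lay below the background and 2 of 9 lower was near it. With the block 2 were higher and 3 lower, against 34.7% and 34.3% of all genes. DESeq2 called 3 members, against 25.5% higher and 24% lower. The median of the 9 was 0.05, against -0.02 over all genes. Itgal, Itgam and Itgax passed in WT and not in cKO, and the difference between genotypes is tested further on.

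**Figure D3:**
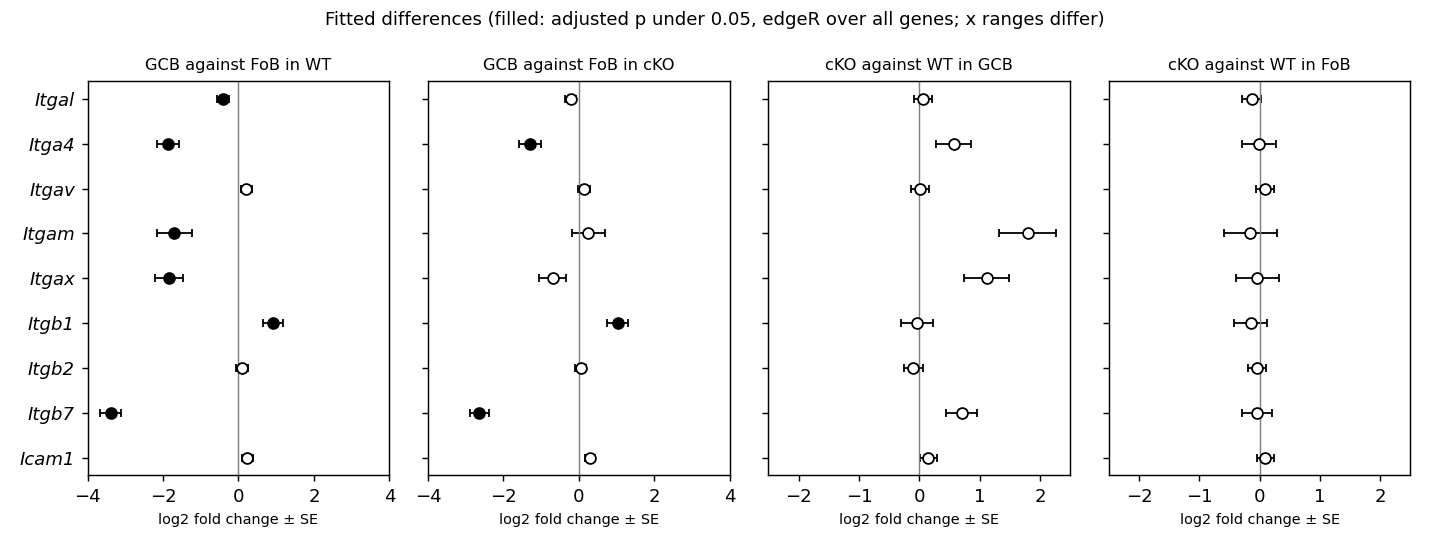
Fitted log2 fold changes ± SE of the 9 genes in 4 comparisons, with filled points where edgeR's adjusted p was under 0.05 and narrower x ranges for the genotype comparisons. Filled points number 6 for GCB against FoB in WT, 3 in cKO and 0 for the genotype in either cell type.

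Setting cKO GCB against WT GCB asked whether Rock2 loss altered adhesion genes in the germinal center. No member passed (0 of 9), and 3 had an unadjusted edgeR p under 0.05, namely Itgam, Itgax and Itgb7, against 673 (4.91%) of the 13708 genes tested. Over all genes 0.102% were higher and 0% lower, so few genes of any kind passed this comparison. DESeq2 called 1 member, Itgam, higher, and of the 12909 genes to which it gave an adjusted p it called 0.968% higher and 0.0387% lower. With the replicate block, Itgam and Itgb7 rose in cKO GCB, 2 of 9 genes against 1.93% of all genes higher and 0.212% lower. The median of the 9 was 0.15 without the block and 0.16 with it, against 0.00 over all genes in both fits.

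For Itgb7 all 3 cKO GCB libraries lay above all 3 WT GCB libraries, and the log2 fold change was 0.70 ± 0.25 (edgeR adjusted p = 0.650). Within numbers 1, 2 and 3 the differences were 1.37, 0.52 and 0.32, so number 1 differed most. The block gave 0.75 ± 0.17 (adjusted p = 0.0331), and this was the single one of 16 alternatives that passed, with adjusted p from 0.0331 to 1. The block fit no longer called it without cKO GCB 1 (0.48, adjusted p = 0.103) or without number 2 in every group (0.89, adjusted p = 0.0884). In the authors' deposited table, Itgb7 had a log2 fold change of 0.74 with a p of 0.00755 and a false discovery rate of 0.251.

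Itgam also had cKO GCB above WT GCB in every library, at 1.80 ± 0.47 (edgeR adjusted p = 0.275). The differences within numbers were 2.44, 2.06 and 0.22, so number 3 hardly differed. It passed with the block (1.72 ± 0.41, adjusted p = 0.0490), with DESeq2 (adjusted p = 0.0493) and without cKO GCB 3 (2.20, adjusted p = 0.0202), in 3 of 16 alternatives with adjusted p from 0.0202 to 1. Itgam is not among the genes of the authors' filtered table. Itgax was likewise higher without overlap, at 1.12 ± 0.37 (adjusted p = 0.509), with differences of 1.40, 1.38 and 0.35. Itgax passed in 0 of 16 alternatives (adjusted p 0.118 with the block and at most 1).

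Itga4 stood above its WT partner in 3 of 3 numbers (0.57, 0.78 and 0.14), but the groups overlapped and the log2 fold change of 0.57 ± 0.29 did not pass (edgeR adjusted p = 1; 0.0955 with the block). Icam1 differed by 0.21, 0.17 and 0.09 within numbers, a log2 fold change of 0.15 ± 0.14 (adjusted p = 1). The remaining 4 genes, Itgal, Itgav, Itgb1 and Itgb2, had log2 fold changes between -0.10 and 0.06, each with an adjusted p of 1 and overlapping groups.

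**Figure D4:**
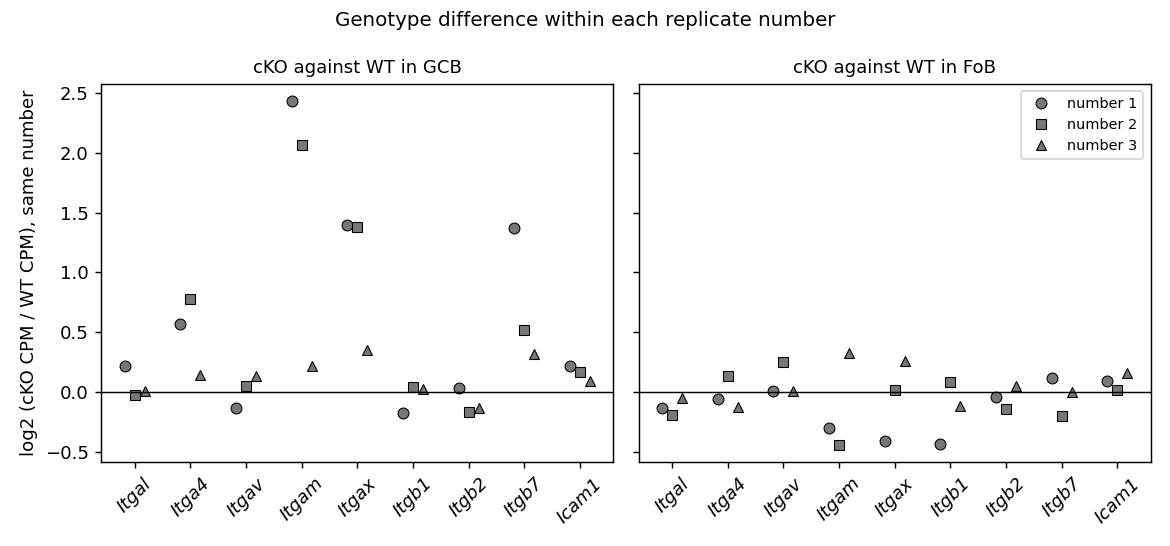
Log2 ratio of cKO to WT CPM between libraries of the same number, in GCB (left) and FoB (right), with a symbol for each replicate number. In GCB, Itgam, Itgax, Itgb7, Itga4 and Icam1 were positive in all 3 numbers, with Itgam at 2.44, 2.06 and 0.22.

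Markers of several cell types differed beside these genotype differences, although 0 genes of any marker list passed without the block. Over all genes tested the median log2 fold change was -0.003, and the block called 1.93% higher and 0.212% lower. Genes of a list can move together with the share of a cell type, so counts above 0 are not independent. The follicular marker sum was 950, 1018 and 1006 CPM in WT GCB 1, 2 and 3 and 1395, 1227 and 1031 CPM in cKO GCB, and the germinal center sum was 3159 to 3444 CPM in WT GCB and 2498 to 2908 CPM in cKO GCB. Of the 8 follicular markers, 6 had a log2 fold change above 0 (median 0.69), and 2 passed as higher with the block. Of the 10 germinal center markers, 0 were above 0 (median -0.35), and 0 passed with the block. The 9 NK cell markers, all detected, summed to 7.58 to 11.1 CPM in WT GCB and 12.9 to 16.0 CPM in cKO GCB, and 9 of 9 had a log2 fold change above 0 (median 0.75). The 11 marginal zone and B-1 markers summed to 561 to 736 CPM in WT GCB and 718 to 812 CPM in cKO GCB, which overlapped. Mzb1, which is also in the plasma cell list, alone held 304 to 445 CPM of this in WT GCB and 331 to 439 CPM in cKO GCB. Of these 11 genes, 9 were above 0 (median 0.70), and 3 passed as higher with the block. Of 14 T cell markers, 12 were above 0 (median 1.18), and Tcf7 and Cd28 passed with the block. The T cell sums overlapped, at 68.2 to 85.6 CPM in WT GCB and 73.8 to 93.0 CPM in cKO GCB. Lck, with a log2 fold change of -0.11, alone held 57.5 to 72.9 CPM in WT GCB and 60.1 to 67.4 CPM in cKO GCB. These sums thus say little of the other T cell markers. Of 8 plasma cell markers, 6 were above 0 (median 0.87), and Irf4, Prdm1 and Fkbp11 passed with the block. The sums of 1451 to 2154 CPM in WT GCB and 1441 to 2180 CPM in cKO GCB overlapped. Jchain alone held 821 to 1456 CPM of this in WT GCB and 809 to 1448 CPM in cKO GCB.

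Myeloid marker lists as a whole did not share the direction of Itgam and Itgax. Above 0 were 0 of 6 neutrophil markers tested (median -1.78), 4 of 11 monocyte and macrophage markers (median -0.34) and 3 of 8 dendritic cell markers (median -0.17). The 3 dendritic cell genes above 0 were Zbtb46, Itgae and Ccr9, and Zbtb46 alone passed with the block. Zbtb46, a dendritic cell factor, stood at 0.267, 0.459 and 0.521 CPM in WT GCB and at 1.24, 1.81 and 1.10 CPM in cKO GCB, without overlap, while Clec9a, Clec10a, Cd209a, Siglech and Flt3 had values from -0.99 to -0.12. The sums of the monocyte and macrophage and the neutrophil markers, given above, overlapped between genotypes. The part of any of these in the differences of Itgb7, Itgam and Itgax was not tested.

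In FoB no member passed by genotype. The edgeR test called 0 of 9, with an unadjusted p under 0.05 in 0 of 9. Over all genes 0% were higher and 0% lower, and 95 (0.693%) had an unadjusted p under 0.05. With the replicate block, 299 (2.18%) of all genes did. Both shares lie below the 0.05 that a test of unchanged genes would give. These fits were thus cautious here, and 0 calls do not show that levels were unchanged. Log2 fold changes ran from -0.15 for Itgam to 0.09 for Itgav and Icam1, each with an edgeR adjusted p of 1. The SE was 0.14 to 0.29 for 7 members and 0.35 and 0.44 for Itgax and Itgam. The member median was -0.05, against 0.01 over all genes, and the replicate block also called 0 members and 0% of all genes. DESeq2 called 0 members, against 0.0073% of all genes higher and 0.0219% lower.

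The genotype effect in GCB minus that in FoB tested directly whether the response differed between cell types. No member passed (0 of 9), with 2 at an unadjusted edgeR p under 0.05 against 371 (2.71%) of all genes, and 0.0073% of all genes were higher and 0% lower. These 2 were Itgam, at 1.95 ± 0.64, and Itgax, at 1.15 ± 0.51, each with an adjusted p of 0.999856. Itgb7 stood at 0.75 ± 0.35 and Itga4 at 0.58 ± 0.41. The same term is the difference between genotypes in the cell-type contrast, so it was not shown that Itgal, Itgam or Itgax differed less between cell types in cKO than in WT. The block also called 0 of 9, against 0.263% of all genes higher and 0% lower, with its lowest adjusted p among members at 0.236 for Itgb7. DESeq2 called 0 members, against 0.17% of all genes higher and 0% lower.

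Genes whose levels ran most like a member's over the 12 libraries were found by the root mean square (RMS) difference of mean-centred log2 CPM among 9100 genes with a mean of at least 5 CPM. For Itgb7 these were the kappa light chain segment Igkv3-4 (RMS 0.171), the lymphocyte surface antigen Ly6d (0.208) and Aldh1b1 (0.223), a mitochondrial aldehyde dehydrogenase. Those nearest to Itga4 were the interferon-induced GTPases Gbp3 (0.184) and Igtp (0.187) and the focal adhesion protein vinculin, Vcl (0.195). Itgb1 was nearest to Rpf2 (0.0774), a ribosome assembly factor, Itgal to Ascc1 (0.0633), Itgb2 to Vrk3 (0.0666), Itgav to Ccnt1 (0.0797) and Icam1 to Smarcal1 (0.0737). Among the 7 members above that level, Itgb7 and Itgb1 were the farthest apart (RMS 2.05), and Itgb2 and Icam1 were the closest pair (0.173).

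Among the other integrin chains, beta chains were higher and alpha chains lower in GCB wherever they passed. The share of all genes called in WT was 25.6% higher and 22.8% lower. Of 9 other alpha chains tested, 0 were higher and 4 lower in WT GCB (median log2 fold change -1.28, against -0.01 over all genes), all of them scarce. They were Itga2 (1.78 CPM in WT FoB and 0.265 in WT GCB, edgeR adjusted p = 0.000210), Itga3, Itga5 and Itga9. All 3 other beta chains tested were higher. Itgb3, the usual partner of Itgav in the vitronectin receptor, rose from 31.3 ± 5.04 to 102 ± 5.15 CPM (SD, n = 3; log2 fold change 1.71 ± 0.15 SE, adjusted p = 3.44e-06). Itgb5, another Itgav partner, rose from 0.233 to 2.94 CPM (adjusted p = 3.00e-05), and Itgb4 from 0.351 to 1.304 CPM (adjusted p = 0.00988), both of them scarce. In cKO GCB against cKO FoB, 0 alpha chains were higher and 2 lower, and 3 of 3 beta chains were higher, against 24.8% and 21.8% of all genes.

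**Figure D5:**
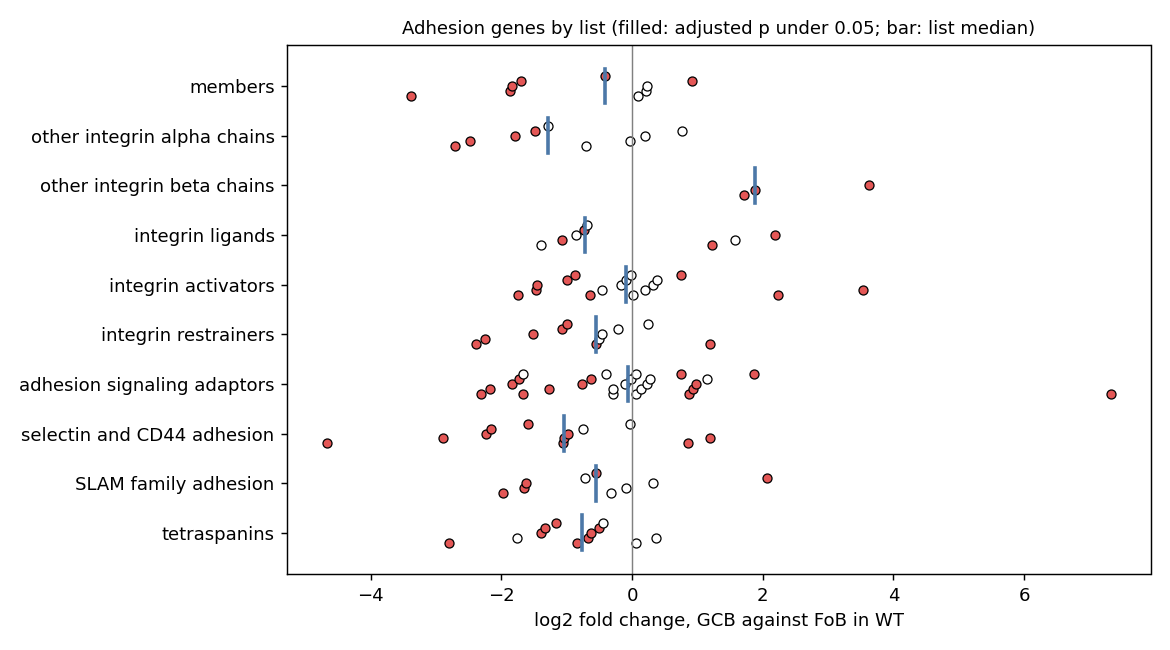
Log2 fold changes of GCB against FoB in WT for the 9 genes and 9 further adhesion lists, with filled points where edgeR's adjusted p was under 0.05 and a bar at each list's median. The 3 other beta chains are filled to the right of 0, and the far right point, Bcar1, is a fitted value against near 0 counts in FoB.

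Ligands other than Icam1 were mixed, with 2 of 8 tested higher and 2 lower in WT GCB (median -0.72). Icam2, another LFA-1 ligand, fell from 96.9 to 57.9 CPM (edgeR adjusted p = 0.000744), and Mfge8, a bridging protein that binds Itgav integrins, fell from 10.4 to 4.97 CPM (0.00233). Spp1, which encodes osteopontin, rose from 0.344 to 1.57 CPM (0.00960) and Cdh1, the ligand of an integrin that contains Itgb7, from 0.584 to 1.36 CPM (0.0391).

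Of 17 genes that activate integrins from inside the cell, 3 were higher and 6 lower (median -0.10). Rassf5, which encodes RAPL, a RAP1 effector that binds the Itgal chain, fell from 276 to 82.1 CPM (edgeR adjusted p = 2.12e-06), and Rapgef6, an exchange factor for RAP1, fell from 275 to 151 CPM (0.000800). Rapgef3, another exchange factor, rose from 3.38 to 15.9 CPM (0.000753), and the talin Tln2 from 0.0811 to 0.968 CPM (0.00106). Of 11 genes that restrain integrins, 1 was higher and 6 lower (median -0.55). Cytip, which limits LFA-1 activation through cytohesin-1, fell from 304 to 63.6 CPM (1.17e-05). The RAP1 inactivator Rasa3 fell from 617 to 308 CPM (6.97e-05), and filamin A, Flna, from 1460.3 to 697 CPM (9.80e-05), while Rap1gap2 rose from 17.7 to 40.3 CPM (0.000545).

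Of 26 adaptors and kinases that signal from bound integrins, 6 were higher and 8 lower (median -0.06). Ptk2, the focal adhesion kinase, rose from 14.6 to 53.6 CPM (edgeR adjusted p = 4.94e-06), and the docking protein Bcar1 rose from 0.0116 to 2.88 CPM (1.81e-05). Nedd9, the lymphocyte relative of Bcar1, fell from 568 to 235 CPM (1.04e-05), and the tensin Tns3 from 22.0 to 6.92 CPM (2.53e-05). Of 12 selectin and CD44 adhesion genes, 2 were higher and 8 lower (median -1.05), among them Pecam1 (384 to 86.4 CPM), Selplg (87.5 to 11.8 CPM) and Ceacam1 (90.8 to 19.2 CPM). In the SLAM family 1 of 9 was higher, Slamf7 (84.1 to 352 CPM), and 4 lower, and of 12 tetraspanins, membrane proteins that associate with integrins, 0 were higher and 8 lower, led by Tspan32 (163 to 23.3 CPM). In cKO, GCB against FoB gave 1 higher and 2 lower of the ligands, 2 and 6 of the activators, 1 and 5 of the restrainers, and 6 and 9 of the adaptors. The counts were 2 and 8 for selectin and CD44 genes, 1 and 4 for the SLAM family and 0 and 7 for tetraspanins. The share of all genes called was 25.6% higher and 22.8% lower in WT and 24.8% and 21.8% in cKO, as given above.

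The replicate block called more genes of most of these lists, as it did of all genes (35.2% higher and 34.3% lower in WT, 34.7% and 34.3% in cKO). In WT it gave 3 higher and 3 lower ligands, 5 and 7 activators, 2 and 8 restrainers, 9 and 12 adaptors, 2 and 6 of the SLAM family and 1 and 9 tetraspanins. In cKO it gave 1 and 3 ligands, 5 and 8 activators, 1 and 8 restrainers, 7 and 12 adaptors, 1 and 5 of the SLAM family, 1 and 8 tetraspanins, and 0 and 3 of the other alpha chains. The counts of the selectin and CD44 genes and of the other beta chains were the same with the block in both genotypes, as was that of the other alpha chains in WT.

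By genotype, 0 genes passed in any of these 9 lists in GCB or in FoB, and 0 in the difference of the effects. In GCB the replicate block called 5 genes over the lists, all higher in cKO. Among them, Selplg, the P-selectin ligand, stood at a mean of 11.8 CPM in WT and 19.7 CPM in cKO (edgeR adjusted p = 0.388, and 0.0332 with the block) and Ceacam1 at 19.2 and 28.6 CPM (0.682, and 0.0365). They also held the tetraspanins Tspan3, at 3.95 and 6.58 CPM (0.275, and 0.0161), and Tspan31, at 19.3 and 28.7 CPM (0.300, and 0.0118). The list medians in cKO against WT GCB ran from -0.15 for the other beta chains to 0.83 for the other alpha chains.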

How the data were processed

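RNA-seq counts of 12 libraries, 3 in each of 4 groups, were analysed. Per the labels' protocols, Nextera libraries were run on a HiSeq2500. The ATAC-seq samples were not analysed here. The authors deposited raw read counts per Ensembl gene for 25640 genes, and the counts in their filtered table of 10518 genes matched these with 0 differing values. They also deposited log2 CPM, which lay within 0.0821 of log2 TMM-scaled CPM over the members, and a table of log2 fold changes with p-values and false discovery rates. The submitters' processing notes name edgeR, Bowtie2 and MACS2 and the build mm10. How reads were counted, by which annotation and strand and with which design is not given in the sources used here, so reads from overlapping or antisense genes cannot be separated.

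Symbols and coordinates came from RefSeq tables on GRCm38.p6. The reference holds gene spans and no transcript lengths, so levels were not compared between genes. Counts were filtered by filterByExpr (13708 genes kept, 11932 left out) and fitted in R 4.3.3 with edgeR 4.0.16 as group means of all 12 libraries, with TMM factors, the quasi-likelihood F test and Benjamini-Hochberg adjustment over all genes at 0.05. The fit had 8 residual degrees of freedom, 6 with the block. Its common biological coefficient of variation, the relative spread between libraries that the fit leaves, was 0.266, and 0.114 with the block. SE is the absolute log2 fold change divided by the square root of F. The fit was tested on simulated data. For cKO against WT in GCB it recovered 33% of 100 genes changed by a log2 of 1, with 6 false calls. Of 100 genes changed by a log2 of 2 it recovered 91%, also with 6 false calls. CPM are given per library or as mean ± SD of 3, and log2 CPM for likeness used a prior count of 2.

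After group means were taken off, correlations across genes between libraries of different groups were 0.478 to 0.753 for the 18 pairs that share a number (median 0.584). They were -0.654 to 0.0952 for the 36 pairs that do not (median -0.304). The numbers thus pair the samples, by this check of the data and not by the labels.

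The members and the gene lists were chosen with earlier results of these data known. Besides members and Rock2, the named genes are, from each adhesion list, the 4 with the smallest p between the cell types in WT and the 2 with the smallest p by genotype in GCB (values are given for those that passed or that the text turns on), and the 3 nearest genes to each member with a mean of at least 5 CPM. A gene that this rule names is not reported here, though the list counts include it. Marker genes are named where a defining marker is at or near 0, carries its list's sum or moves with a member. Alternatives were RLE factors, total counts only, no filter, DESeq2 1.42.0, the replicate block, the compared groups alone, each library left out, number 2 left out, and 3 chosen after seeing the data that combine the block or left-out libraries.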

Additional observations from a re-analysis of the deposited data

How the results depend on the processing

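Of 765 values for the 9 genes under alternative settings, 684 kept their direction and side of the threshold, 11 lost the call, 15 gained it and 55 changed sign, all 55 in differences that had not passed. Of 765 list counts, 741 stayed within 1.5 times their main value. By genotype and in the difference of effects the main count of every adhesion list was 0, and a factor of 1.5 carries little meaning there. The number of members called in cKO against WT GCB, 0 of 9, became 1 with DESeq2 and 2 with the replicate block, and 0 to 1 with a library left out. In cKO GCB against cKO FoB, 3 became 5 with the block and 6 with the block and without cKO GCB 1. Icam1 and Itgax were gained with the block, and Itgal too without cKO GCB 1. Among members, the block changed no other call than the 5 given with their results, and its list counts are given beside the lists. Leaving out a library gave 4 to 6 members in WT GCB against FoB, 3 to 4 in cKO, and 0 in FoB by genotype and in the difference of effects.

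Sign changes without a library left a range per gene. For cKO against WT in GCB the log2 fold change ranged from -0.0112 to 0.13 for Itgal, -0.11 to 0.12 for Itgav, -0.29 to 0.16 for Itgb1 and -0.19 to 0.000693 for Itgb2. In FoB it ranged from -0.13 to 0.12 for Itga4, -0.31 to 0.0289 for Itgam, -0.27 to 0.14 for Itgax, -0.38 to 0.0121 for Itgb1, -0.13 to 0.0462 for Itgb2, -0.23 to 0.0888 for Itgb7 and -0.0113 to 0.16 for Icam1. For GCB against FoB it ranged from -0.0041 to 0.19 for Itgb2 in WT, and in cKO from -0.11 to 0.66 for Itgam and -0.0294 to 0.10 for Itgb2. The difference of effects ranged from -0.20 to 0.0296 for Itgav, -0.15 to 0.34 for Itgb1, -0.15 to 0.0501 for Itgb2 and -0.0077 to 0.16 for Icam1.

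With total counts only, Itgb1 by genotype in GCB became 0.0251 and the difference of effects for Itgb2 0.0016, and with no filter Itgb2 in cKO GCB against FoB became -0.00470. With WT FoB 1 and cKO GCB 1 both left out, Itgb1 by genotype in GCB became 0.0286, Itga4 and Itgam in FoB 0.0394 and 0.0288, Itgam in cKO GCB against FoB -0.11, and the differences of effects of Itgav and Itgb2 0.0318 and 0.0756. The block without cKO GCB 1 gave -0.0232 for Itgal and 0.0486 for Itgb1 by genotype in GCB, and -0.12 for Itgam in cKO GCB against FoB. Without number 2, Itgb2 and Itgb7 by genotype in FoB became 0.0177 and 0.0553, and Itgam in cKO GCB against FoB -0.0628. The same with the block gave 0.0278 for Itgam, 0.0143 for Itgb2 and 0.0625 for Itgb7 in FoB and -0.18 for Itgam in cKO GCB against FoB. The cause of each was not tested. Levels per transcript length were not run. At 12 to 66 counts a library, Itgam has wide counting error, and 3 libraries a group limit every SE given.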
